A study of Mus musculus with 24 samples.

Results

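The genes examined were 10 genes of MHC class I antigen presentation, H2-K1, H2-D1, B2m, Tap1, Tap2, Tapbp, Psmb8, Psmb9, Nlrc5 and Erap1, of 22877 genes that the arrays measured under a RefSeq symbol. They were chosen by name, and each was found through probes whose RefSeq transcript belongs to that symbol. This gave 15 probes, 2 each for H2-K1, Tap1, Tap2, Tapbp and Nlrc5 and 1 each for the other 5 genes.

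Total RNA of 7 mouse cell lines was hybridised to 24 single-colour Agilent arrays, 1 sample per array. Of these, 5 were melanoma lines derived from B16F1, a mouse melanoma line, and carrying GFP, a green fluorescent protein: the parental line M (3 arrays), the line D recovered from a mouse after a long dormancy (4 arrays), and DB#1 (4 arrays), DB#2 (3 arrays) and DB#3 (3 arrays), lines of the next generation, recovered from the brain. All were grown in culture. The other 2 lines, M0 (4 arrays) and J365 (3 arrays), are described in the labels as myeloid cells. Their array names all carry the mark p20, which no melanoma array carries and which is not interpreted here. Melanoma and myeloid lines therefore differ in cell type, origin and this mark. One array of M0 and 1 of J365 carry no replicate number in their names and are called replicate 4 here. Nothing in the labels says that arrays of a line came from separate cultures, so p-values measure the spread between these samples, which may be technical. The arrays lay on 3 slides, and each slide held every line.

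MHC class I molecules display short peptides from inside the cell to cytotoxic T cells. A polymorphic heavy chain (H2-K1 or H2-D1 in the mouse) pairs with the light chain beta-2 microglobulin (B2m). The peptides are cut by the proteasome, whose interferon-inducible catalytic subunits Psmb8 and Psmb9 form the immunoproteasome, carried into the endoplasmic reticulum by the transporter subunits Tap1 and Tap2, trimmed there by the aminopeptidase Erap1 and loaded with the help of tapasin (Tapbp). Nlrc5 is a transactivator of class I genes. B16 melanoma is known as a line with low class I display at rest.

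Levels are given as normalized log2 signal, the log2 of the background-corrected intensity minus the 75th percentile of the same array, so that 0 is the level of a bright probe and 1 unit is a doubling. Levels of different probes cannot be set against each other on this scale. Of the 10 genes, 6 were well above background on all 24 arrays. D replicate 3 stood apart, with 89.9% of probes well above background against 43.6% to 53.8% elsewhere, and the lowest share belonged to D replicate 1. D replicate 1 was the highest D array for 6 of the 10 class I genes (44.5% of 15768 genes read on all arrays) and D replicate 3 for 3 of them (14.5%). All 8 melanocyte markers were read on every melanoma array, at a mean of 6.68 to 7.58, and all 12 blood cell markers on every myeloid array, at a mean of 3.01 to 3.60. The melanoma arrays had a blood marker mean of -4.32 to -2.69, which was at most -3.66 without D replicate 3. In RNA of whole cultures, fewer cells that express a gene and less RNA per cell cannot be told apart.

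Promoter sequence was looked up because several of these genes are known to share control elements. RefSeq (assembly GRCm38.p6) gave the 250 bases before the start of 8 of the 10 genes, all but Tap2 and Nlrc5. Searched on both strands were the NF-kappa-B site known from enhancer A of class I genes (the longest run of capitals in the H2-K1 and H2-D1 windows), GAANNGAAA (an interferon response element) and TGACG (the core of a cyclic AMP response element, part of the module that Nlrc5 is known to act through). Sequences run 5′ to 3′, and capitals mark these matches, none of which overlap. H2-K1 and H2-D1, the heavy chains, are shown with B2m and with the stretch between the Psmb9 and Tap1 starts, which face away from each other and share it.
H2-K1, chr17:34000348-34000597, minus strand: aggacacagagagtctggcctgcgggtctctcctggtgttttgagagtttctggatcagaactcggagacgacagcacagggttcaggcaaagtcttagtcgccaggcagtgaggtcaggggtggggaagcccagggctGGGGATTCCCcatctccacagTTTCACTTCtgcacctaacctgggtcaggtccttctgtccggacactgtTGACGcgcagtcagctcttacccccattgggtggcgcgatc
H2-D1, chr17:35262844-35263093, plus strand: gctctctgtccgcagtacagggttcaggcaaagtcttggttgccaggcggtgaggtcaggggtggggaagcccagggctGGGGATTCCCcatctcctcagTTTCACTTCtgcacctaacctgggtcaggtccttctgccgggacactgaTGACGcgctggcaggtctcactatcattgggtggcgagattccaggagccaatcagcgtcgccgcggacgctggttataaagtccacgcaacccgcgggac
B2m, chr2:122147437-122147686, plus strand: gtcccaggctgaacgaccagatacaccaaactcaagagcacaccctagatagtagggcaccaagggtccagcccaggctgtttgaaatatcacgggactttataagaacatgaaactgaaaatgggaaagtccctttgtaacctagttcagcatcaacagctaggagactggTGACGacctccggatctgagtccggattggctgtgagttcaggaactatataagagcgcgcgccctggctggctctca
Psmb9 to Tap1, chr17:34187331-34187555, plus strand: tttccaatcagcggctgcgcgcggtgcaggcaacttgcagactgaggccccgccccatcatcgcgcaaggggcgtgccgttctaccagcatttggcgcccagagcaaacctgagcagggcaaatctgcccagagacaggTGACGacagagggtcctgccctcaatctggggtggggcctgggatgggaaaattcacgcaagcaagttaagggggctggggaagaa

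The windows of H2-K1 and H2-D1 held all 3 elements in the same order, which began at -111, -90 and -41 from the H2-K1 start and at -171, -150 and -101 from the H2-D1 start. The enhancer A site was present in 28 of 32851 such windows of all genes (0.0852%), GAANNGAAA in 6.31% and TGACG in 17.8%. B2m and the Psmb9 to Tap1 stretch held TGACG and neither of the other strings as searched. Psmb8, Tapbp and Erap1 held none of the 3. A match of letters is a description and does not show that a factor binds there. Only these exact strings were searched, so a window without a match may hold the same kind of element in another spelling.

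The largest differences lay between the cell types. The question here was how the class I genes of the parental melanoma line M stood against those of the myeloid line M0. In M, 9 of the 10 genes were called lower (limma, adjusted p under 0.05), where 58.5% of all 22426 tested genes were called and 30.8% were called lower in M. The median of the 10 differences was -4.54 on the log2 scale, against -0.13 for all tested genes. Psmb8, Psmb9, Tap2, Tap1, Nlrc5 and H2-K1 were lower by more than 4, as were 4.82% of tested genes. H2-D1, B2m and Tapbp differed less, and Erap1 was not called.

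Among the heavy chains, H2-K1 read 0.55, 0.24 and 0.34 on the M arrays and 5.36, 4.97, 4.77 and 4.04 on the M0 arrays. All M arrays lay far below all M0 arrays, and H2-K1 was lower in M by 21.2-fold (log2 -4.41 ± 0.27 SE, adjusted p 7.97e-12, limma). H2-D1 read 2.17, 1.93 and 2.36 in M and 3.04, 4.24, 3.93 and 3.43 in M0, again without overlap. It was lower by 2.84-fold (log2 -1.51 ± 0.34 SE, adjusted p 0.000667). B2m, the shared light chain, read 5.40, 5.36 and 5.21 in M and 6.41, 6.60, 6.11 and 5.42 in M0. The groups did not overlap, though M0 replicate 4 came close to M, and the fall was 1.75-fold (log2 -0.81 ± 0.22 SE, adjusted p 0.00352).

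The H2-K1 value rests on the brighter of its 2 probes. The other probe gave a difference of -0.60 ± 0.72 (SE, adjusted p 0.501) between M and M0 and was split within the myeloid lines. It read -1.08 on M0 replicate 1 and -1.18 on J365 replicate 3, the 2 myeloid arrays of slide 1, and 1.53 to 2.59 on the other myeloid arrays. H2-D1 was also lowest in both myeloid lines on the arrays of slide 1, at 3.04 and 3.07. Class I heavy chains are a family of near-identical and polymorphic genes, so a probe may also bind the RNA of relatives, and the probe signals for H2-K1 and H2-D1 are uncertain to that extent.

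**Figure D1:**
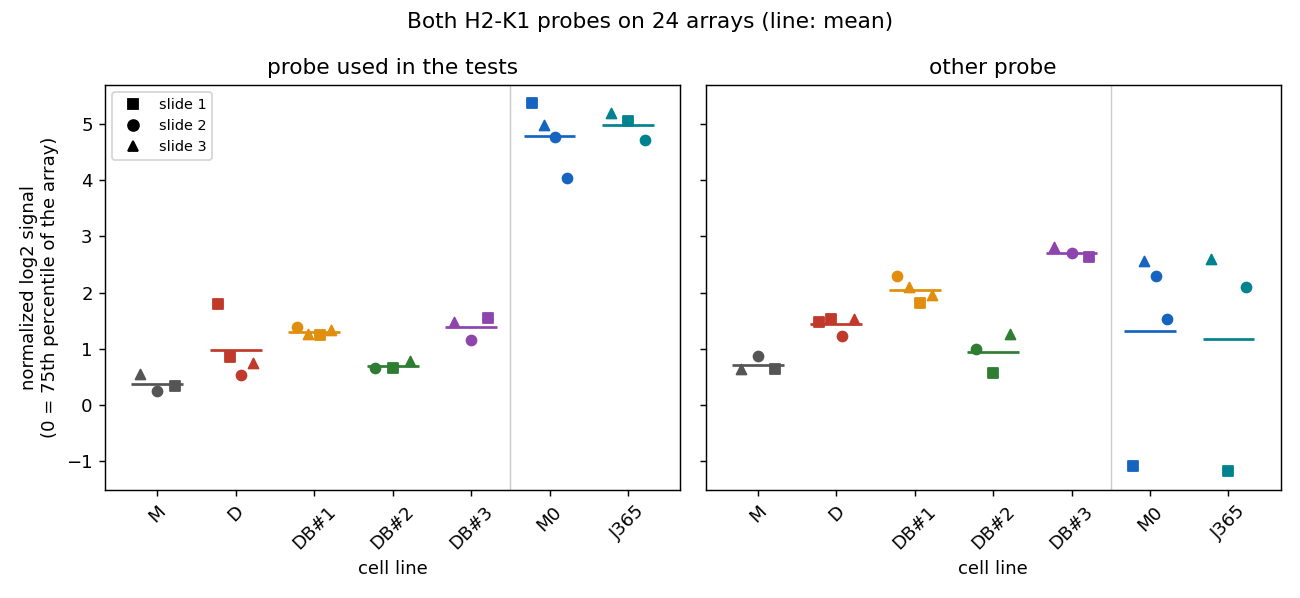
Normalized log2 signal of the 2 H2-K1 probes on every array, by cell line, with the slide as the marker shape and the line mean as a bar. Both probes rank the melanoma lines DB#3, DB#1, D, DB#2, M from high to low, while on the other probe the myeloid arrays of slide 1 read -1.08 and -1.18 and the other myeloid arrays 1.53 to 2.59.

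The immunoproteasome subunits were furthest apart. Psmb8 read -6.40, -6.39 and -6.50 on the M arrays, none of them well above background, and 5.03, 4.57, 4.08 and 3.74 on the M0 arrays. Because the M signal is only a bound, Psmb8 was at least 401-fold lower in M than in M0 (adjusted p 1.92e-13, limma). Of the other melanoma arrays only D replicate 3 (-4.05) lifted the probe above background, and for M, DB#1, DB#2 and DB#3 against either myeloid line the bound was at least 400-fold to at least 574-fold. Psmb9 read -3.85, -4.04 and -3.89 in M and 5.28, 4.95, 4.64 and 4.21 in M0. Its signal was above background in M, and the fall was 413-fold (log2 -8.69 ± 0.38 SE, adjusted p 2.75e-14). By measured values, 34 of 22426 tested genes had a lower M minus M0 value than Psmb8, and 128 had a lower one than Psmb9. The rank of Psmb8 rests on M signals that were not well above background. Its bound, M0 over M, was log2 8.65 and near the size of the Psmb9 fall, so the order of these 2 genes is not settled.

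The transporter subunits followed. Tap1 read -1.76, -1.47 and -1.39 in M and 3.37, 3.42, 3.18 and 2.73 in M0. It was 26.3-fold lower in M (log2 -4.72 ± 0.28 SE, adjusted p 7.05e-12), and its other probe gave -4.58. Tap2 read -1.34, -0.95 and -1.10 in M and 5.04, 4.87, 4.72 and 4.47 in M0. It was lower in M without overlap (log2 -5.91 ± 0.26 SE, adjusted p 3.18e-14). The other Tap2 probe, which was well above background on no M array, gave a measured difference of -2.74.

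Of the genes that finish the peptide and load it, Tapbp read 2.24, 2.74 and 2.98 in M and 3.76, 3.21, 3.14 and 2.88 in M0. The groups overlapped, and the call (log2 -0.59 ± 0.24 SE, adjusted p 0.0372) was lost without M replicate 1 (-0.39) or 2 (-0.64), without M0 replicate 1 (-0.42) or 2 (-0.60), with only the arrays of M and M0 (adjusted p 0.0898), with no filter on dim probes (adjusted p 0.087) and with its other probe (-0.21). Erap1 read -3.25, -2.69 and -2.97 in M and -2.81, -3.37, -3.04 and -3.01 in M0. Its groups overlapped, with a difference of 0.08 ± 0.17 (SE, adjusted p 0.709). The transactivator Nlrc5 read -4.02, -4.71 and -4.38 in M, with 1 of the 3 arrays well above background, and 0.35, 0.30, 0.36 and 0.18 in M0. It was 25.4-fold lower (log2 -4.67 ± 0.32 SE, adjusted p 6.18e-11), and its other probe gave -1.95 (adjusted p 2.69e-05).

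On the probes used in the tests, the same order of cell types held in the other lines. For H2-K1, Tap1, Tap2, Psmb8, Psmb9 and Nlrc5 all 17 melanoma arrays lay below all 7 myeloid arrays, which was true of 16.1% of all genes examined. In all 10 pairs of a melanoma and a myeloid line, 8 of the 10 genes were called lower in the melanoma line, compared with 21.7% of genes tested in all pairs. The exceptions were H2-D1, called lower in 8 pairs, and Erap1, called lower in 4. The pair differences ran from -8.98 to -7.97 for Psmb9, from -6.14 to -5.70 for Tap2 and from -4.60 to -3.40 for H2-K1. They ran from -1.56 to -0.64 for B2m and from -0.82 to 0.26 for Erap1. The pairs share lines and are not independent of each other. The other H2-K1 probe did not keep this order. On it all DB#3 arrays (2.63 to 2.81) lay above all myeloid arrays. Its means in DB#3 (2.71), DB#1 (2.04) and D (1.44) exceeded those in M0 (1.32) and J365 (1.17), while DB#2 (0.95) and M (0.72) lay below. On the other Tap2 probe D replicate 3 (-3.08) lay above all myeloid arrays.

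**Figure D2:**
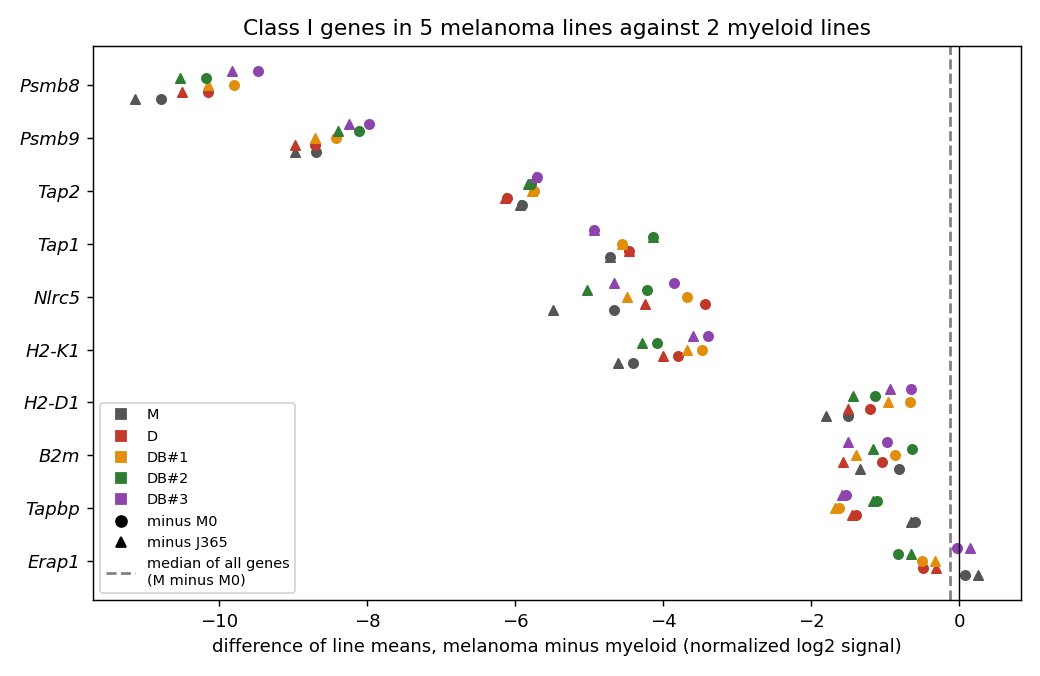
Difference of the line means (normalized log2 signal) between each of 5 melanoma lines (colours) and M0 (circles) or J365 (triangles), for each gene, with the median of all tested genes for M minus M0 (-0.13) as a dashed line. Psmb8 and Psmb9 lie furthest below 0, H2-D1, B2m and Tapbp lie nearer to it, and Erap1 lies on both sides (-0.82 to 0.26). The Psmb8 values are measured differences of a probe that the melanoma lines hardly lifted above background.

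Further genes of the pathway were called in both directions, and their counts stand beside the 58.5% of all tested genes that were called and the 30.8% called lower in M. Of 8 further genes of the endoplasmic reticulum and peptide loading, 6 were called higher in M than in M0 and 0 lower, although quantile normalization, the percentile over detected probes and normexp each called 1 lower and slide as a block 2. Hspa5, an endoplasmic reticulum chaperone, was higher by 2.03, Pdia3, the disulfide isomerase of the loading complex, by 1.53 and the chaperone Canx by 1.43 (log2). Of 7 further proteasome genes tested, the constitutive catalytic subunits Psmb6 (0.75) and Psmb7 (0.74) were called higher in M, and the immunoproteasome subunit Psmb10 (-1.24) and the proteasome activator subunit Psme1 (-1.26) lower, again a share near that of all tested genes. Of 15 other heavy chain genes tested, 11 were called lower and 2 higher. H2-M3 was at least 76.2-fold lower in M, where it was not well above background, and H2-T23 was lower by 4.79 on the log2 scale (-4.79). Fcgrt, the neonatal Fc receptor, was at least 14.9-fold higher in M, and the other gene called higher was Hfe (4.75), a regulator of iron uptake.

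Of 27 regulators tested, 11 were called lower in M and 3 higher, a share near that of all tested genes, with the cytokine signalling inhibitor Socs1 at -5.19, Irf7 at -1.89 and Nfkb1 at -1.82. Of 17 interferon-stimulated genes tested, 11 were called higher in M and 5 lower, and the largest measured differences belonged to Gbp2, Rsad2 and Ifit3. These were not well above background on any M0 array, and were at least 14.7-fold, 12.5-fold and 9.25-fold higher in M. The median of the 17 measured differences was 2.15. The 3 tested class II genes were called lower, H2-DMb1, a chain of the class II peptide exchanger, by the most (-6.13).

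**Figure D3:**
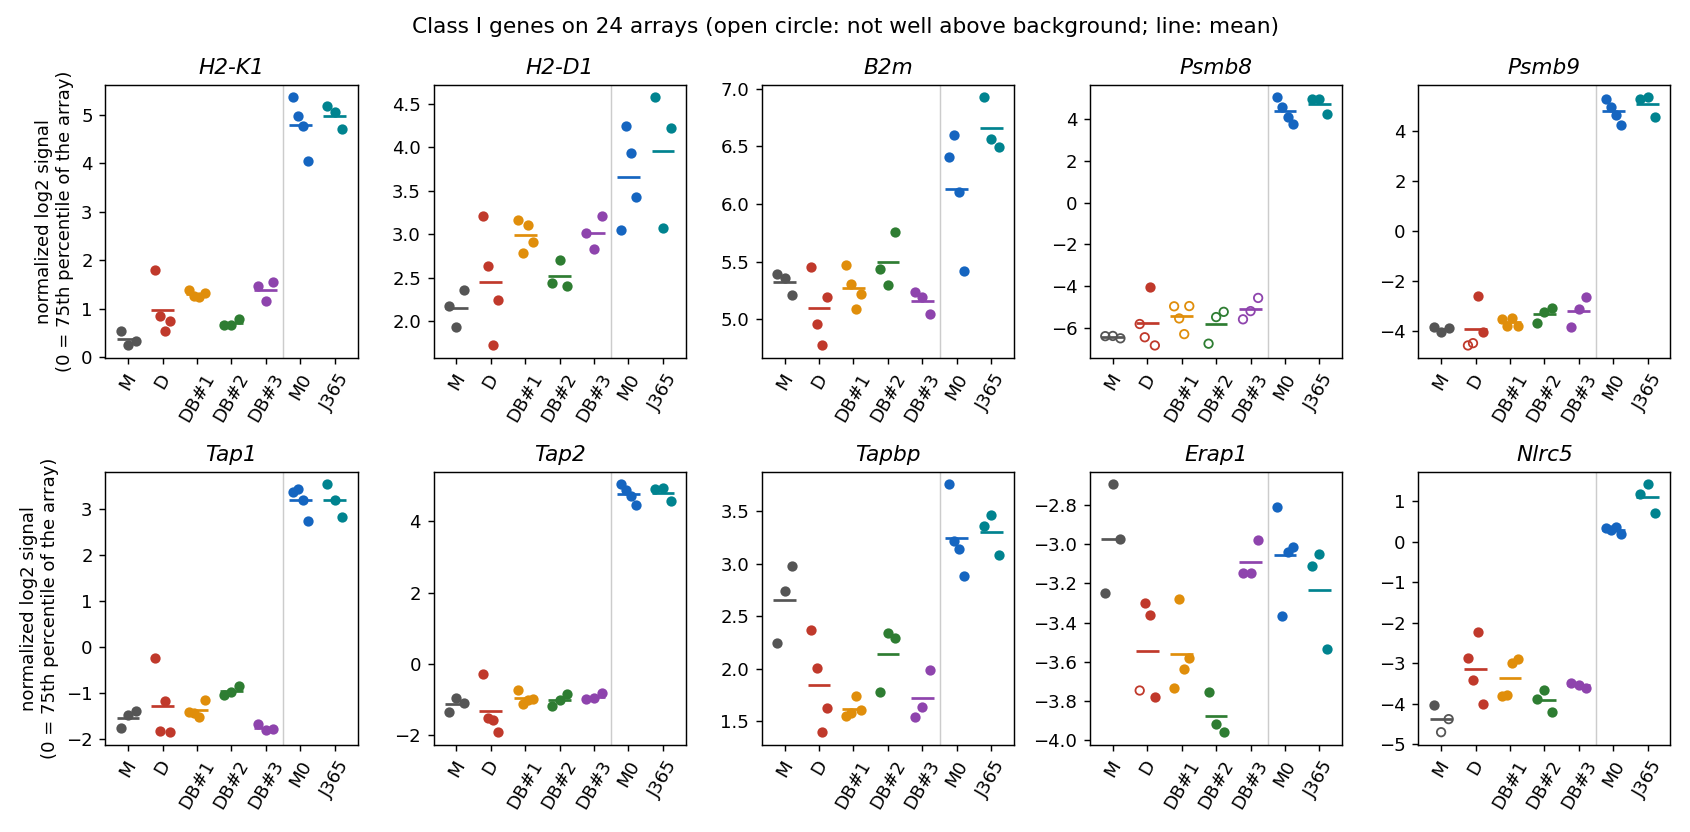
Normalized log2 signal of each of the 10 class I genes on 24 arrays, by cell line, with 1 point per array, open where the probe was not well above background, and the line mean as a bar. In 6 panels the melanoma and myeloid arrays are separate, whereas H2-D1, B2m, Tapbp and Erap1 overlap. Each panel shows the probe used in the tests.

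Within the melanoma lines the question was whether D and the DB lines differed from parental M. These 4 comparisons share the M arrays. Few class I genes were called, 1 in D (2.97% of all tested genes were called there), 1 in DB#1 (3.69%), 1 in DB#2 (3.44%) and 0 in DB#3 (2.76%, with 4 class I genes at an unadjusted p under 0.05, limma). Psmb8 was not tested in any of them, since no melanoma line had it well above background on every array. The medians of the 9 tested class I genes were -0.01, 0.17, 0.33 and 0.21 for D, DB#1, DB#2 and DB#3. Those of all tested genes were -0.01, 0.04, 0.02 and 0.03. With the untested Psmb8 included, the class I medians were 0.13, 0.22, 0.34 and 0.47. With slide as a block the counts were 3 in D, 2 in DB#1, 1 in DB#2 and 2 in DB#3.

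H2-K1 was higher than in M in every derived line by its mean, most in DB#3 and DB#1. It read 1.47, 1.15 and 1.54 in DB#3, 1.39, 1.26, 1.24 and 1.33 in DB#1, 1.80, 0.85, 0.53 and 0.74 in D, and 0.66, 0.66 and 0.79 in DB#2, with M at 0.24 to 0.55. The arrays of DB#1, DB#2 and DB#3 did not overlap with those of M, while D replicate 3 fell inside the M range. The difference to M was 1.01 ± 0.28 (SE, adjusted p 0.0635, limma) in DB#3 and 0.93 ± 0.26 (adjusted p 0.0572) in DB#1, which missed the threshold. With slide as a block both passed it (adjusted p 0.0214 and 0.0223), and on the 3 slides taken alone the differences were 0.91 to 1.20 in DB#3 and 0.75 to 1.14 in DB#1. Arrays of DB#1 and M with the same replicate number deviated together, and with that number as a block 2 genes were called in DB#1, Tapbp and H2-K1 (0.98, adjusted p 0.0119).

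The other H2-K1 probe gave the same order of the melanoma line means, DB#3, DB#1, D, DB#2, M. It read 2.81, 2.70 and 2.63 in DB#3, 2.30, 2.10, 1.81 and 1.95 in DB#1, and 0.65, 0.87 and 0.64 in M. Neither DB#3 nor DB#1 overlapped with M. The differences were 1.99 ± 0.76 (SE, adjusted p 0.282) and 1.32 ± 0.72 (adjusted p 0.502) in the model of all 24 arrays, whose spread for this probe includes the split myeloid arrays. In models of only the arrays compared they were 1.99 ± 0.13 (adjusted p 0.00105) and 1.32 ± 0.15 (adjusted p 0.0027). H2-D1, the other classical heavy chain, read 3.01, 2.83 and 3.21 in DB#3 and 3.16, 2.78, 3.11 and 2.91 in DB#1, above the M arrays (1.93 to 2.36). Its differences of 0.86 ± 0.36 (adjusted p 0.356) and 0.84 ± 0.34 (adjusted p 0.249) did not pass, while in models of only the arrays compared H2-D1 was called in DB#1 (adjusted p 0.0235) and not in DB#3 (adjusted p 0.0649). B2m differed from M by -0.23 to 0.17 in the 4 lines.

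Tapbp went the other way. It read 1.55, 1.58, 1.75 and 1.61 in DB#1, 1.54, 1.64 and 1.99 in DB#3, 2.37, 2.00, 1.40 and 1.62 in D, and 1.78, 2.34 and 2.30 in DB#2, with M at 2.24 to 2.98. The DB#1 and DB#3 arrays lay below all M arrays. It was called in DB#1 (log2 -1.03 ± 0.24 SE, adjusted p 0.0116, limma), a call lost without M replicate 2 (-0.99) or 3 (-0.87). In DB#3 it was -0.93 ± 0.25 (adjusted p 0.0505) and in D -0.80 ± 0.23 (adjusted p 0.0749), and both were called with slide as a block (adjusted p 0.00181 and 0.0019). On each slide taken alone Tapbp was lower than in M by 0.62 or more in D, DB#1 and DB#3. Its other, dimmer probe did not follow, at -0.05 in D, -0.15 in DB#1 and -0.08 in DB#3.

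Erap1 was lowest in DB#2. It read -3.75, -3.92 and -3.96 there against -3.25, -2.69 and -2.97 in M, without overlap. The fall of 1.87-fold was called (log2 -0.90 ± 0.19 SE, adjusted p 0.00544, limma). Its sign was the same on all 3 slides (-1.06 to -0.71), but the call was lost without M replicate 2 (-0.76, adjusted p 0.0557), with quantile normalization, normexp or no scaling, and in a model of DB#2 and M alone. In D and DB#1 Erap1 differed by -0.57 ± 0.17 (adjusted p 0.0897) and -0.59 ± 0.17 (adjusted p 0.0713), and in DB#3 by -0.12 ± 0.19 (adjusted p 1).

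Nlrc5 gave the 1 call in D. It read -2.87, -3.42, -2.22 and -4.02 on the D arrays and -4.02, -4.71 and -4.38 on the M arrays, where D replicate 4 and M replicate 1 were nearly level. It was well above background on all 4 D arrays and on 1 of the 3 M arrays, so it was tested through D alone. The other M values are readings near background, which leaves the size of the difference uncertain. The difference was 1.24 ± 0.32 (SE, adjusted p 0.0339, limma). The call was lost with quantile normalization (0.69, adjusted p 0.337), normexp (0.37, adjusted p 0.433) and the mean of its probes (0.67, adjusted p 0.183). It was also lost without M replicate 2 (1.07) or 3 (1.23) and without D replicate 1 (1.15) or 3 (0.94). The difference was 0.65 (adjusted p 0.364) without D replicates 1 and 3 together, and 0.00 on slide 3. The other Nlrc5 probe gave 0.11 and was too dim in both lines to be tested. D replicate 3 also had 9 of 10 T, B and NK cell markers (mean -2.02) and 10 of 12 blood cell markers (mean -2.69) well above background, where the other melanoma arrays had 2 to 4 (mean -4.89 to -4.21) and 3 to 6 (mean -4.32 to -3.66), with 6 and 4 of the markers above background on none of them. Lists of other tissues were raised on the same array, with 11 of 11 brain markers (mean -1.29, at most 7 and -2.65 on the other melanoma arrays) and 6 of 9 fibroblast and endothelial markers (mean -3.36, at most 4 and -4.36). On this array 89.9% of all probes were well above background, against 43.6% to 53.8% on the other arrays. High counts there were thus not particular to these lists. The part of these markers in the Nlrc5 value was not tested. In the DB lines Nlrc5 differed from M by 1.00, 0.45 and 0.82 in DB#1, DB#2 and DB#3, none of them called.

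The subunits and transporters that were lowest against the myeloid lines stayed low. Psmb9 read -4.58 to -2.62 over the 17 melanoma arrays, Tap1 -1.86 to -0.25 and Tap2 -1.92 to -0.30. The upper ends of Tap1 and Tap2 were both D replicate 1. Against M, Psmb9 differed by -0.01 to 0.72, Tap1 by -0.22 to 0.58 and Tap2 by -0.20 to 0.21 in the 4 derived lines, with no call.

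**Figure D4:**
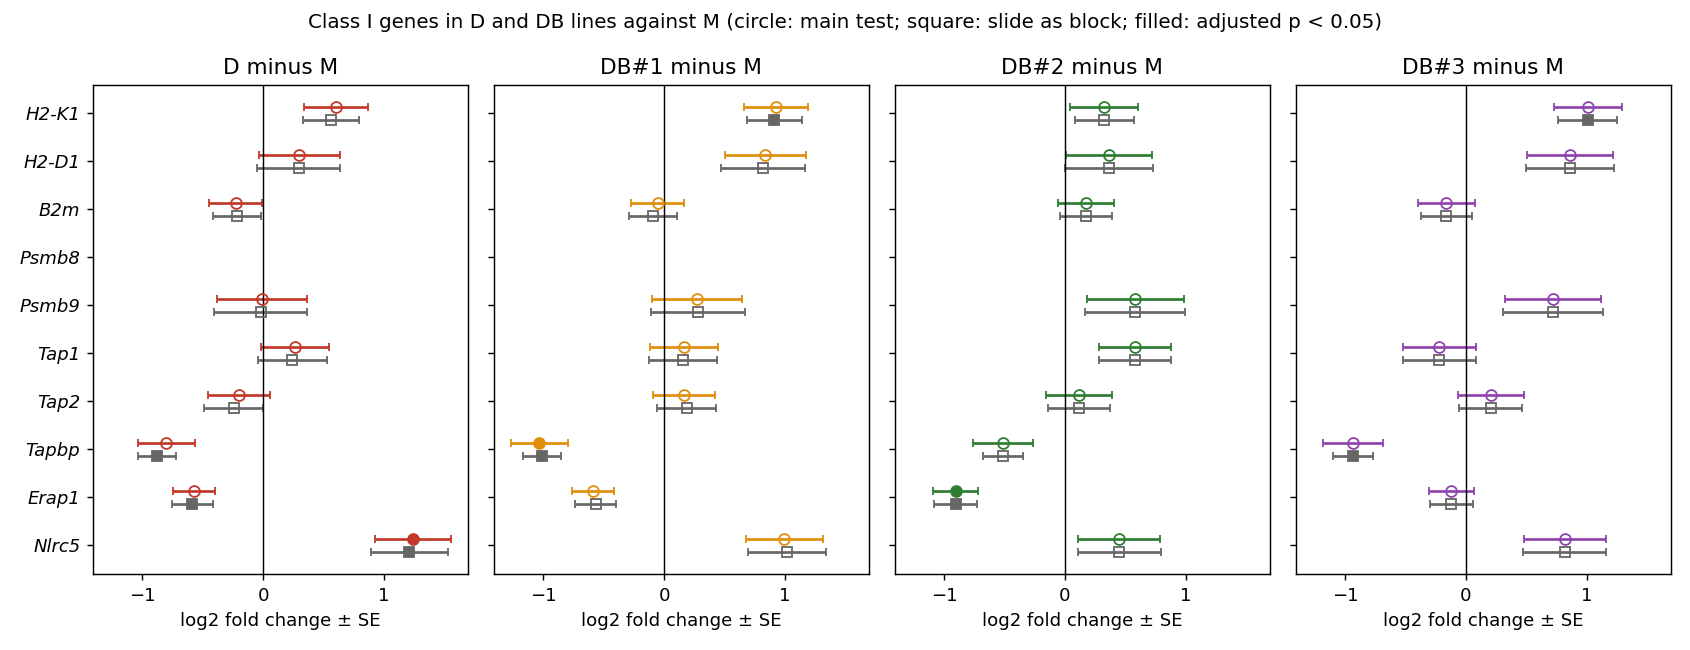
Log2 fold change with its SE for each class I gene in D, DB#1, DB#2 and DB#3 against M, from the model of all arrays (circles) and with slide as a block (squares), filled where the adjusted p was under 0.05. The called values are Nlrc5 in D (1.24), Tapbp in DB#1 (-1.03) and Erap1 in DB#2 (-0.90), and the block adds H2-K1 in DB#1 and DB#3 and Tapbp in D and DB#3, as well as Erap1 in D (-0.59). Psmb8 was not tested.

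Compared with D, the DB lines had 0 class I genes called, with 0.475% of all tested genes called for DB#1, 6.34% for DB#2 and 0.369% for DB#3. The numbers at an unadjusted p under 0.05 (limma) were 0, 1 and 1, Nlrc5 in DB#2 (-0.79 ± 0.32 SE) and Erap1 in DB#3 (0.46 ± 0.17 SE). Single D arrays weighed on this. Without D replicate 1, Tap2 was called higher in DB#1 (0.71), DB#2 (0.66) and DB#3 (0.76). Without D replicate 3, Psmb9 was called higher in DB#2 (1.03), and without D replicate 4 Nlrc5 was called lower there (-1.08).

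DB#2 was then compared with the mean of DB#1 and DB#3, the other lines from the same site. Here 1 class I gene was called, Erap1 (log2 -0.55 ± 0.16 SE, adjusted p 0.0374, limma), where 7.14% of all tested genes were. H2-K1 (-0.64 ± 0.24, adjusted p 0.126), Tap1 (0.61 ± 0.25, adjusted p 0.191) and Tapbp (0.47 ± 0.21, adjusted p 0.242) were not called, though each had the same sign on all 3 slides. With only the arrays of these 3 lines 4 class I genes were called, H2-K1 (adjusted p 0.00367), Tap1 (adjusted p 0.00456), H2-D1 (adjusted p 0.0354) and Erap1 (adjusted p 0.0127). The median of the 9 tested class I genes was -0.07, against -0.02 for all tested genes. With the untested Psmb8 included it was -0.26.

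The interferon pathway around these genes differed more. Of 17 interferon-stimulated genes tested (of 20 listed and 18 on the array), 14 were called higher in DB#2 than in the mean of DB#1 and DB#3 and 0 lower. Their median was 1.84, and 7.14% of all tested genes were called in this comparison. Igtp (3.64 ± 0.23 SE) and Usp18 (3.63 ± 0.24 SE), an interferon-induced GTPase and a brake on interferon receptor signalling, led the interferon-stimulated genes, followed by Xaf1 (3.06). Igtp was not well above background on any DB#3 array, so its value is a measured difference only. Of 26 regulators tested, 5 were called higher and 0 lower, among them Irf7 (2.59) and Irf9 (1.97), factors that carry interferon signals to promoters. The count of interferon-stimulated genes was 13 or 14 under each scaling and with slide as a block. Nlrc5, at -0.46 ± 0.29 (SE, adjusted p 0.472), was not called, and neither were H2-D1, B2m, Psmb9 or Tap2.

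Against M, DB#2 had 7 of the 17 interferon-stimulated genes called higher and 0 lower (3.44% of all tested genes were called). The count called higher ran from 3 to 11 over the scalings and the block. Psmb10, the remaining immunoproteasome subunit, was called higher in DB#2 (0.65 ± 0.16 SE, adjusted p 0.0212), as was the heavy chain H2-M3 (at least 2.63-fold, adjusted p 0.0048), which M did not lift above background. Psmb9 was at 0.58 ± 0.40 (adjusted p 0.699) in the same comparison. H2-M3 was also called higher than M in DB#3 (at least 1.93-fold, adjusted p 0.0472, limma). With normexp, 0 of the 15 other heavy chain genes tested were called in DB#2 or in DB#3 against M. In DB#3 6 of the 17 were called lower than in M and 0 higher (2.76% of all tested genes were called), led by Igtp (at least 5.14-fold). In D 5 were called lower and 0 higher (2.97%), and in DB#1 4 lower and 1 higher (3.69%). These comparisons share the M arrays. H2-K1 had its highest melanoma mean in DB#3. H2-DMb1 was called higher than in M in D (2.28), DB#1 (2.83) and DB#3 (2.88) and was at -1.01 in DB#2.

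**Figure D5:**
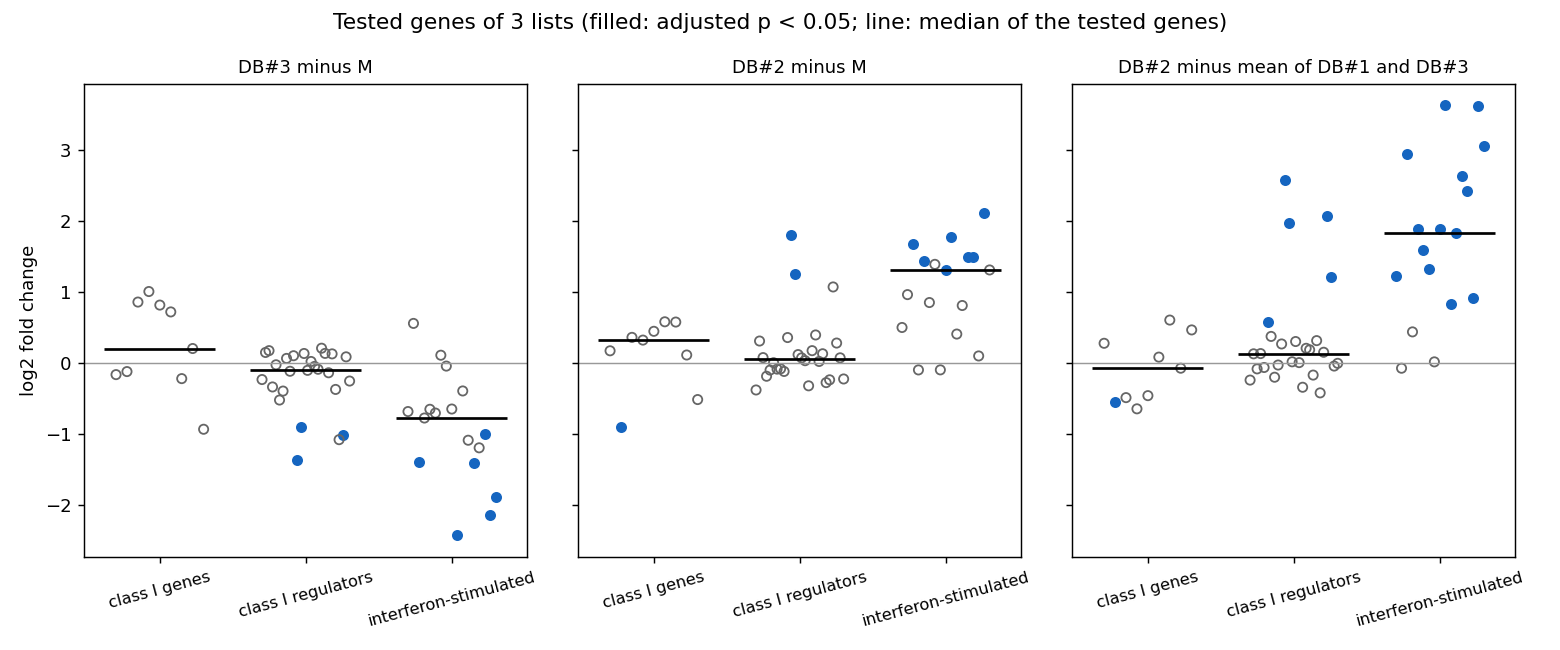
Log2 fold change of the tested class I genes, class I regulators and interferon-stimulated genes in DB#3 against M, DB#2 against M and DB#2 against the mean of DB#1 and DB#3, with 1 point per gene, filled where the adjusted p was under 0.05, and the median of each list as a bar. In the last panel 14 of 17 interferon-stimulated genes are called higher, while 1 class I gene is called, and lower.

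Between the myeloid lines, J365 minus M0 was examined in the same way. None of the 10 class I genes was called (0 genes, limma), where 1.47% of all tested genes were, and 2 had an unadjusted p under 0.05, Nlrc5 (0.81 ± 0.32 SE, adjusted p 0.369) and B2m (0.53 ± 0.22 SE, adjusted p 0.444). Nlrc5 read 1.19, 1.43 and 0.72 in J365, above all M0 arrays, and was called with normexp (0.73, adjusted p 0.0278). The arrays without a replicate number were the lowest of their line for 8 of the 10 class I genes in M0 and 9 in J365, against 32.6% and 32.9% of genes read on all arrays. Their part in these values was not tested.

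The step from M to D was also set against the step from M0 to J365, as a difference of differences. It was called for 0 of the 10 genes (limma), where 2.08% of all tested genes were called, and 2 had an unadjusted p under 0.05, Tapbp (-0.86 ± 0.33 SE, adjusted p 0.324) and B2m (-0.75 ± 0.31 SE, adjusted p 0.389). With slide as a block Tapbp was called (-0.88, adjusted p 0.037).

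In the order of line means on the probes used in the tests, J365 came first and M0 next for every gene but Erap1. This pair was called for no gene, although for Nlrc5 all J365 arrays lay above all M0 arrays. The gap between M0 and the highest melanoma line was called for every such gene but H2-D1, where DB#3 followed at 0.64 ± 0.34 (SE, adjusted p 0.107). Below that gap no neighbouring melanoma lines were called for any tested gene. For Erap1 the order was M, M0, DB#3, J365, D, DB#1, DB#2, with no neighbours called.

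The genes most like the class I genes were sought over the 17 melanoma arrays, by Pearson correlation with the mean of the 6 class I genes read on all of them. Cyb561 (0.88), Them4 (0.87), Leprotl1 (0.87), Oxld1 (0.87) and Esd (0.86) came first of 11866 genes. Without D replicate 3 they were Nudt16, Cyb561, Them4, Pqlc3 and Oxld1 (0.84 to 0.88). D replicate 1 was the highest melanoma array for H2-K1 (1.80), H2-D1 (3.21), Tap1 (-0.25) and Tap2 (-0.30), and its part in the ranking was not tested. The arrays share slides and lines, and the class I genes themselves followed the mean of the other 5 unequally, from 0.89 for Tap2 to -0.02 for Tapbp.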

How the data were processed

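Expression was measured on single-colour Agilent arrays with spots labelled by cyanine 3. The authors deposited a scanner table per array, made with Agilent Feature Extraction 10.7.3.1 per the labels, whose intensity (gProcessedSignal) is background-corrected on a linear scale and not scaled between arrays. A deposited series table held the same intensity (1511424 of 1511424 values equal) and served as the unscaled setting. The array design refers to mm9, so no probe positions are given.

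Control spots and spots with an outlier flag were left out, which removed 117 of 56605 probes that kept no spot on some array. Spots of a probe were averaged, and log2 intensity minus the 75th percentile of the array was used. No non-control spot was saturated, and 0 array pairs were identical. Probes were named through their accession in a RefSeq table (GRCm38.p6). Of several probes of a gene the brightest over all arrays was taken. Where no array of a line had a gene well above background, the fold is a bound: each array of that line was given its own signal or, if higher, the dimmest signal that counted as well above background on it, and the brighter line was set against the mean of these.

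All 24 arrays entered 1 limma model (limma 3.58.1, R 4.3.3) with 1 coefficient for each line and 17 residual degrees of freedom. A gene was tested if some line of the comparison had it well above background on all its arrays, with Benjamini-Hochberg adjustment over all tested genes and a call at an adjusted p under 0.05. The script was tested on simulated data. The authors filtered and tested their values in GeneSpring, and which test they ran is not given in the sources used here. The class I genes and the lists were chosen with earlier results of these data known. All class I genes are named. From each other list the called genes with the largest differences are named, at most 3 per comparison, besides Hfe, Psmb7 and H2-DMb1 in DB#2, which were chosen after their values were seen. One result on a gene of these lists is not reported here.

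Alternatives were quantile normalization, the 75th percentile over detected probes, no scaling, normexp with an offset of 50 (on median signals, since the files used hold no mean signal column), the mean of all probes, no filter on dim probes, slide or replicate number as a block, only the arrays of the lines compared, and leaving out each array. The dimmer probe, alone or with only the arrays compared, D without replicates 1 and 3, and list counts under other settings were added after the data were seen. The dimmer probe is the one with the lower mean over all arrays, which for H2-K1 was the brighter one in the melanoma lines. Replicate numbers are not said to pair arrays. Same-numbered arrays deviated together in DB#1 and M (correlations of 0.45 to 0.86) and in DB#2 and D (0.14 to 0.76), and not in every pair of the other comparisons.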

Additional observations from a re-analysis of the deposited data

Results flagged for a closer look

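Erap1 was lower in DB#2 than in the mean of DB#1 and DB#3 by 0.55 on the log2 scale (-0.55 ± 0.16 SE, adjusted p 0.0374, limma). It is listed because lines from the same site differed from each other in their distance to M by a test of that difference. The value was negative on all 3 slides (-0.67 to -0.31) and kept its sign in every alternative run, while the call was lost in many of them, including without any 1 of the 3 DB#2 arrays (-0.61 to -0.51). No array stood apart by the gap to its nearest neighbour in the 30 sets of 4 arrays examined (0 sets), where chance gives about 1 in 20. Lines with 3 arrays, DB#2 and DB#3 among them, were not in this check, so it does not bear on them.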

How the results depend on the processing

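In each of the melanoma comparisons 0 or 1 class I genes were called, where 0.369% to 7.14% of all tested genes were called. Whether the number of array samples and their spread limited the class I counts was not tested. Dim probes (Psmb8, Nlrc5, Psmb9, Erap1) sit near background in the melanoma lines. No called value changed sign. Of the values of single genes under the alternatives, 2086 kept direction and side of the threshold, 53 passed it newly and 47 lost it. Another 268 moved by more than the spread between arrays or changed sign. Among these 268 were values of genes called in the main test, such as Tap2 in M minus M0. The cause of these shifts was not tested.

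The M minus M0 count of 9 ran from 7 (dimmer probe) to 9. Class I genes called in D minus M (1 as reported, Nlrc5) were 1 with quantile normalization and with normexp, which lost Nlrc5 (0.69 and 0.37) and called Tapbp (adjusted p 0.0326 and 0.0448), 2 with the percentile over detected probes, 2 with no scaling, 3 with slide as a block, and 0 with the mean of all probes, with no filter on dim probes, in a model of D and M alone, with the dimmer probe (in either model) and without D replicates 1 and 3. In DB#1 minus M (1) they were 2 with quantile normalization, the percentile over detected probes, no scaling and slide as a block, 3 with only the arrays compared, 0 with the dimmer probe and 2 with the dimmer probe and only those arrays. In DB#2 minus M (1) they were 0 with quantile normalization, no scaling, normexp, only the arrays compared, and the dimmer probe with only those arrays. In DB#3 minus M (0) they were 2 with quantile normalization, the percentile over detected probes, no scaling and slide as a block, and 1 with normexp, the mean of all probes, only the arrays compared, and the dimmer probe with only those arrays. In DB#2 minus D (0) they were 1 with quantile normalization and 2 without D replicates 1 and 3. For DB#2 against the mean of DB#1 and DB#3 (1) they were 0 with quantile normalization, normexp and no filter, 2 with no scaling and slide as a block, and 4 with only the arrays compared, with either probe. Normexp called 1 in J365 minus M0 (0), and slide as a block called 1 in the difference of differences (0). The dimmer probe and the paired removal of D replicates were chosen after seeing the data.

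With the replicate number as a block (numbered arrays), 0 class I genes were called in D minus M, 2 in DB#1 minus M, 1 in DB#3 minus M and 0 for DB#2 against the mean of DB#1 and DB#3, and the other counts did not move. DB#3 and M share only 1 number, and pairing is not given by the labels.

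Leaving out 1 array at a time gave 0 to 2 in D minus M, 0 to 2 in DB#1 minus M, 0 to 1 in DB#2 minus M, 0 to 1 in DB#3 minus M, 0 to 1 in each DB line minus D, 0 to 1 for DB#2 against the mean of the others, 8 to 9 in M minus M0, and 0 in J365 minus M0 and the difference of differences.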
